A study of Mus musculus with 12 samples.

Results

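H3K27ac was measured by chromatin immunoprecipitation and sequencing (ChIP-seq) over the histone deacetylase genes Hdac1, Hdac2, Hdac3, Hdac4, Hdac5, Hdac7, Hdac9, Hdac10 and Hdac11 of 4T1 cells, a wild-type mouse mammary carcinoma line. The members were chosen by name. They are the intervals of H3K27ac signal to which the authors' annotation gave 1 of these 9 gene names, which was the case for 67 of 126464 intervals and 9 of 22264 gene names. Hdac6 and Hdac8, the other zinc-dependent deacetylases, had 18 intervals and are given only for comparison. Before harvest the cells spent 48 h in 1 of 6 treatments, which were vehicle, 5 mM acetate, 50 µM etomoxir, etomoxir + acetate, SB204990 + etomoxir (each at 50 µM) and SB204990 + etomoxir + acetate, called all 3 agents here. Each treatment had 2 libraries, for a total of 12, and nothing in the labels says that they came from separate cultures, so p-values measure only the spread between these libraries. Libraries of the different treatments share 1 of a pair of name suffixes, called set 1 and set 2 here. Cells can turn acetate into acetyl-CoA, from which histones are acetylated. The entry of long-chain fatty acids into mitochondria is blocked by etomoxir, and the making of acetyl-CoA from citrate by ATP citrate lyase is blocked by SB204990. The study asked whether the supply of acetyl-CoA controls H3K27ac, and the genes described here encode enzymes that remove such acetyl groups.

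Histone deacetylases take acetyl groups off lysines, and the acetate that they free can be made into acetyl-CoA again. Hdac1, Hdac2 and Hdac3 are class I enzymes of the nucleus. Hdac1 and Hdac2 are the catalytic subunits of the Sin3, NuRD and CoREST corepressor complexes, and Hdac3 is that of the NCoR/SMRT complexes. Hdac4, Hdac5, Hdac7 and Hdac9 are class IIa proteins with little deacetylase activity of their own, which bind MEF2 transcription factors and are held in the cytoplasm by 14-3-3 proteins once they are phosphorylated. Hdac10 is a class IIb enzyme that acts on acetylated polyamines. Hdac11, which removes long fatty acyl groups, is listed with these genes here but is usually placed in a class of its own. H3K27ac over a gene is a mark of active promoters and enhancers, and it gives neither the amount nor the activity of the enzyme.

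A value is the number of reads in an interval multiplied by a factor that the authors derived from human chromatin added to each sample (the spike-in), and a gene's value is the sum over its intervals. Such a scaled read was 1 whole read in 1 library of each set and less in the others. The largest factor was thus 1 within each set, so scaled reads of set 1 and set 2 may not be on 1 scale. Where libraries of both sets are compared below, only the order within a set is free of this limit. Reads in intervals ranged from 7179165 to 16676442 per library and factors from 0.398 to 1. The lowest factor was that of SB204990 + etomoxir in set 1, whereas the library of this treatment in set 2 had a factor of 1. The SB204990 + etomoxir library of set 2 had the fewest reads and stood apart. Correlations between it and the remaining libraries averaged 0.9655, whereas the averages of the remaining libraries were 0.9756 to 0.9782. The epithelial markers Epcam, Cdh1, Krt8 and Krt19 had 571 to 3385 scaled reads in vehicle, whereas no interval carried the names Krt18 and Krt7, Tek of endothelium, Alb of hepatocytes or Actc1 and Myh6 of heart muscle, and Apoa2 of hepatocytes had 3.22. Ptprc and Cd3e of leukocytes had 52.4 and 12.1, although Csf1r (391), Pecam1 (623) and Cdh5 (110) also carried signal.

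The members were spread unevenly over the genes. Hdac4 had 30 intervals, Hdac1 9, Hdac2, Hdac3 and Hdac11 6 each, Hdac5, Hdac7 and Hdac9 3 each, and Hdac10 1. By the authors' annotation 47 of the 67 (70.1%) lay in introns, compared with 51.5% of all intervals, 9 (13.4%) were intergenic, compared with 29.3%, and 6 (8.96%) were at promoters, compared with 6.60%. Their median length was 664 bp (175 to 30635 bp), against 715 bp overall. The map of intervals along the genes shows 3 arrangements. In Hdac2, Hdac5, Hdac10 and Hdac1, 1 wide interval covered the annotated gene start and held most of the signal. Hdac4 had its 2 strongest intervals inside the gene, and the strongest of Hdac3 and the strongest of Hdac11 lay at the far end. Hdac7 and Hdac9 had only weak intervals under their own names.

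**Figure D1:**
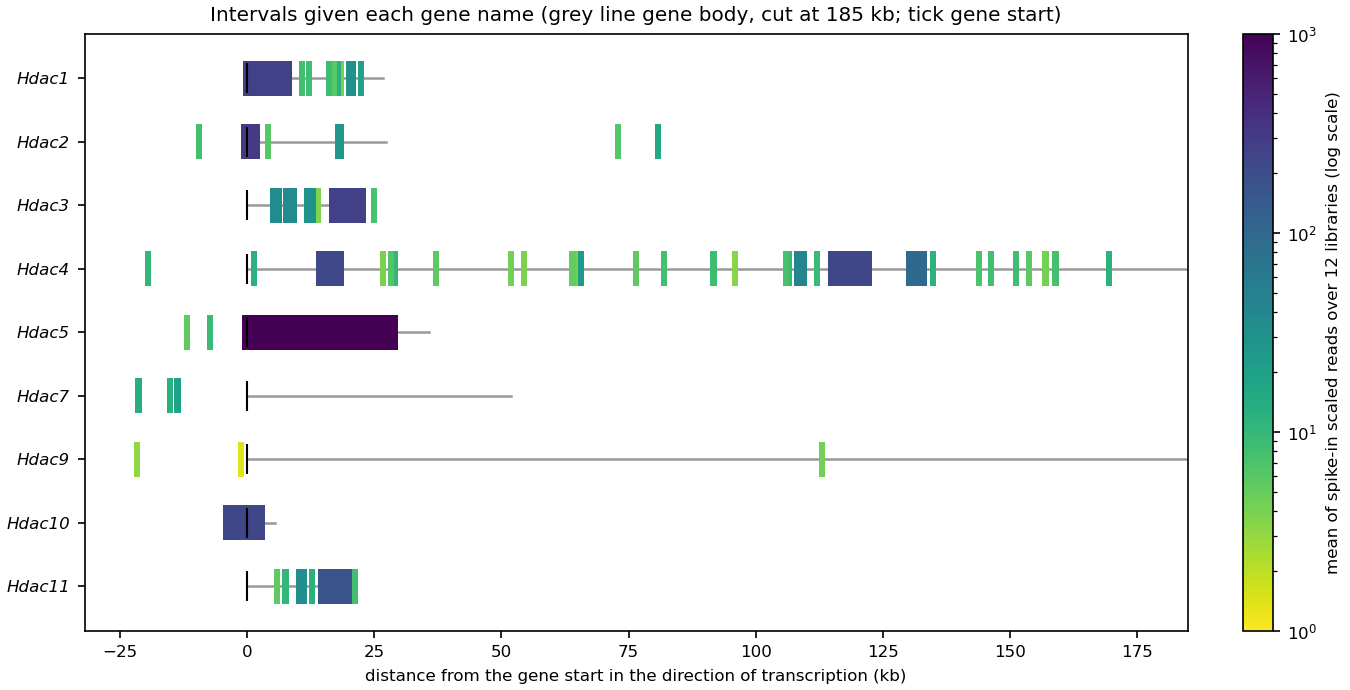
Position of the 67 intervals relative to the start of the gene whose name they carry, in kb along the direction of transcription, with the gene body as a grey line. Colour gives the mean of the scaled reads over 12 libraries on a log scale, and the darkest bar is the Hdac5 interval of 30635 bp with a mean of 982; bars narrower than 1.2 kb are drawn at that width.

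The sequences before 3 transcription starts that lay wholly inside an interval of the same gene are shown because these intervals were the strongest of Hdac2, a class I gene, and of Hdac5, a class IIa gene, and the second strongest of Hdac4, a class IIa gene whose annotated start had no interval. Each is the 250 bases before a RefSeq start in GRCm38.p6, 5′ to 3′ on the strand of the gene. That of Hdac2 is chr10:36974294-36974543 on the plus strand, that of Hdac4 is chr1:92180342-92180591 on the minus strand, at a start inside the gene, and that of Hdac5 is chr11:102230173-102230422 on the minus strand. Capitals mark GC boxes (GGGCGG, or CCGCCC on the other strand) and CCAAT boxes (CCAAT, or ATTGG on the other strand), which do not overlap each other here. 
Hdac2: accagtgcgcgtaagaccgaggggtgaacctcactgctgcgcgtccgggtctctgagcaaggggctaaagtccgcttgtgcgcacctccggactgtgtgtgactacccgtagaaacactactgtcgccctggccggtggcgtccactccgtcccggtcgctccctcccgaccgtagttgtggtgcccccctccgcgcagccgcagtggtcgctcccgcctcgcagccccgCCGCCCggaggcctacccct 
Hdac4: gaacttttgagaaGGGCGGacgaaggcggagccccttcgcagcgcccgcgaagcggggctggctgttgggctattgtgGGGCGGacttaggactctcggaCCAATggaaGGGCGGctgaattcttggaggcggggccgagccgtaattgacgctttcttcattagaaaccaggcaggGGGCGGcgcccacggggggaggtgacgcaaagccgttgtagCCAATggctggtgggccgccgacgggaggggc 
Hdac5: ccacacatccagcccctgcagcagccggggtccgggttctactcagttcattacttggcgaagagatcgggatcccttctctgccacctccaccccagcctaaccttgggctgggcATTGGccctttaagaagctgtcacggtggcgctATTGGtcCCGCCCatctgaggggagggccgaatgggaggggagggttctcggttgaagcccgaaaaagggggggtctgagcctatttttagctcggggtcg

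The Hdac4 window held 4 GC boxes and 2 CCAAT boxes, the Hdac5 window 1 and 2, and the Hdac2 window 1 and 0. Of 32851 such windows of mouse genes, 32.7% held a GC box and 33.8% a CCAAT box. G and C made up 68.8% of the Hdac2 window, 65.2% of that of Hdac4 and 60.8% of that of Hdac5, compared with a median of 52.4%. CG dinucleotides numbered 27, 23 and 12, compared with a median of 6. A match is a description of the letters and not of a bound factor. RefSeq windows were found for 6 of the 9 genes. All 4 of Hdac7 lay inside the interval named Slc48a1 that is described below, both of Hdac9 lay outside any interval, and that of Hdac11 only partly overlapped one, which carried the name Gm14573. Hdac1, Hdac3 and Hdac10 had no entry.

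Compared per length, the genes differed in level. Reads-per-million (RPM, relative to all reads in intervals) per kb of interval do not depend on the spike-in factor. On this scale Hdac2 was the highest at a median of 4.91 (4.30 to 5.71 over the 12 libraries), and it did not overlap with Hdac5, the next at 3.46 (2.95 to 3.98). Hdac10 followed at 3.11, Hdac3 at 2.68, Hdac11 and Hdac4 at 2.53 each and Hdac1 at 2.50, and each overlapped with the next. Hdac7 (1.22, from 0.785 to 2.15) and Hdac9 (1.15, from 0.441 to 2.15) were the lowest, overlapped with each other and lay below Hdac1 in every library (2.20 to 2.75). This order holds only for intervals that carry the gene's own name. The interval over the whole Hdac7 gene, which carried the name Slc48a1, had a mean of 59.7 scaled reads per kb. All intervals named Hdac2 together had 45.8, and the single interval over the Hdac2 start had 79.1. The interval over the Hdac3 start, named Rell2, had 28.9.

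Among the class I genes, Hdac1 had 244, 405, 326.9, 605, 217 and 359 scaled reads in set 1, listed here and below in the order of treatments given at the start, from vehicle to all 3 agents. In set 2 Hdac1 had 308, 432, 283, 508, 254 and 474. Every library with acetate (359 to 605) was above every library without it (217 to 326.9), as was the case for 39.3% of all genes with a mean of at least 10. The interval at its start (chr4:129533822-129543579, 9758 bp) held 66.1% to 79.3% of the gene's signal in each library, with a median of 73.1%.

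For Hdac2 the order in set 1 was 292, 449, 360, 525, 233 and 296 scaled reads, and in set 2 it was 292, 395, 356, 489, 245 and 428. The groups with and without acetate overlapped, since all 3 agents in set 1 had 296 and etomoxir had 360 and 356. The interval at its start (chr10:36973291-36977104) held a median of 83.9% of the signal, from 69.4% in SB204990 + etomoxir of set 2 to 89.9%.

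Hdac3 had 277, 445, 336, 609, 226 and 387 scaled reads in set 1. In set 2 it had 310, 395, 320, 562, 261 and 457. As in Hdac1 and in 39.3% of all genes, all libraries with acetate (387 to 609) were above all without (226 to 336). Its strongest interval, with a median of 71.0% of the signal, lay 16018 to 23285 bp from the gene start and also covered a start of Diaph1, the gene next to it. The start of Hdac3 itself lay in an interval that the authors' annotation named Rell2, with 185.1, 279, 222, 411, 143 and 277 scaled reads in set 1 and 220, 265, 218, 414, 187 and 341 in set 2. The value of Hdac3 therefore leaves out its own start.

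**Figure D2:**
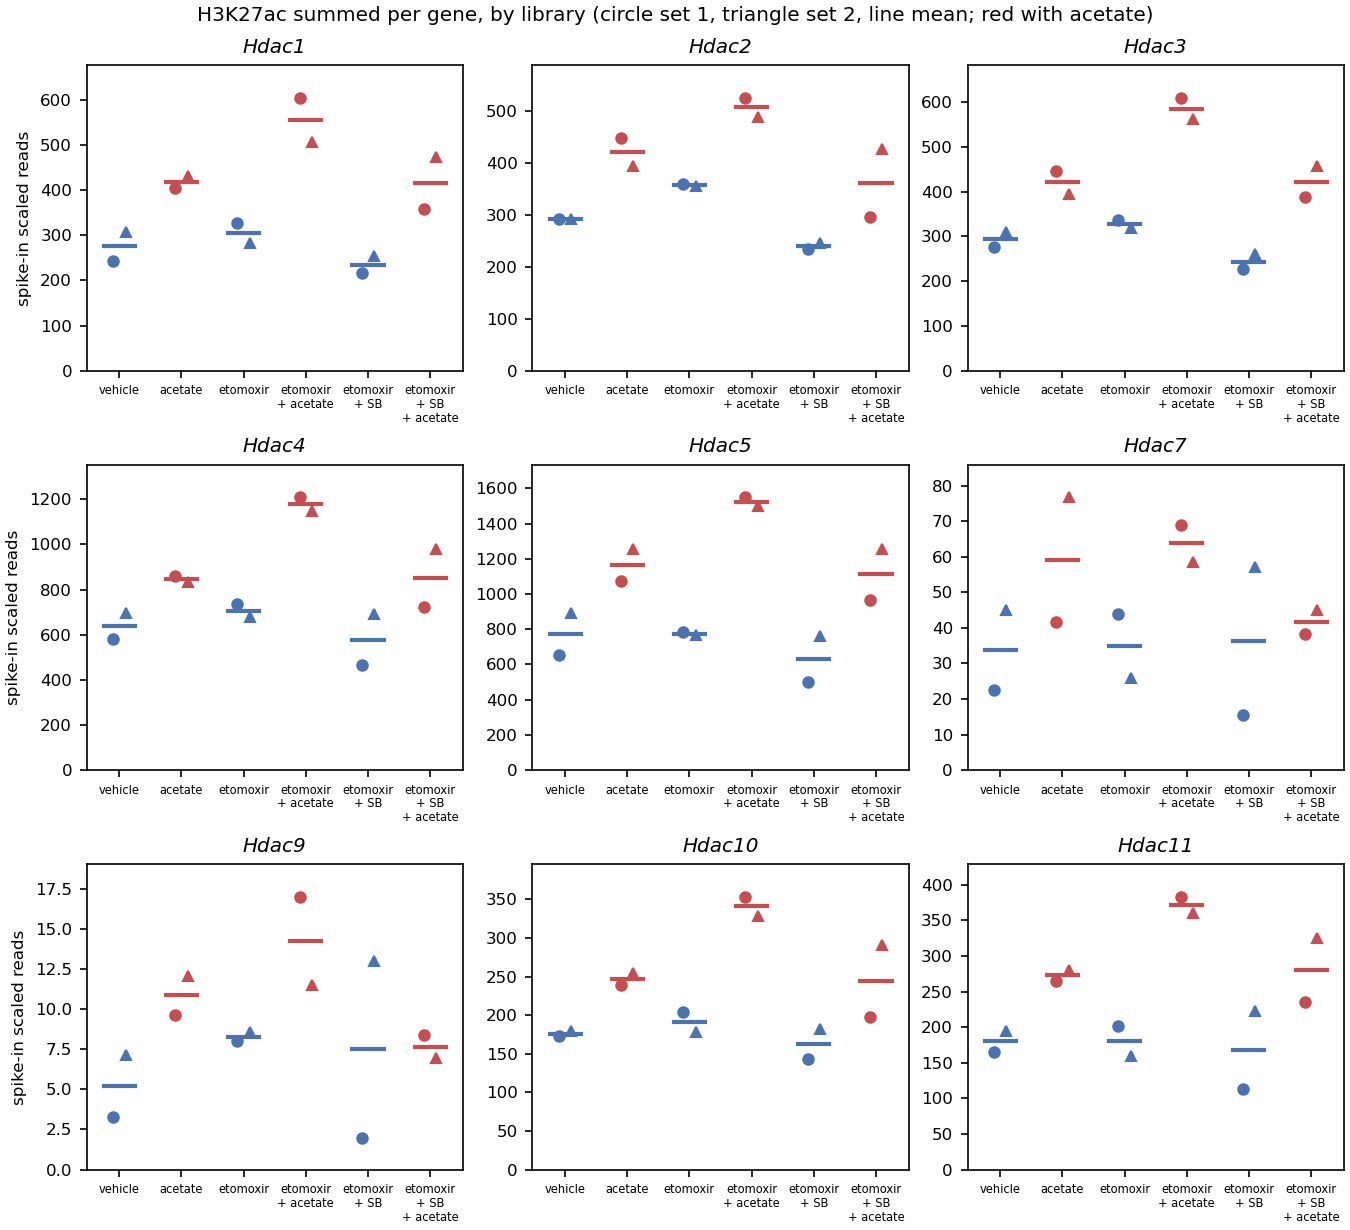
Spike-in scaled reads summed per gene in each of the 12 libraries (y axis) by treatment (x axis; SB is SB204990), with circles for set 1, triangles for set 2, a line for the mean of 2, and red for treatments with acetate. In Hdac1, Hdac3, Hdac5 and Hdac11 the 6 red points lie above the 6 blue ones, as in 39.3% of all genes with a mean of at least 10. In Hdac7 and Hdac9 the sets differ as much as the treatments.

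Among the class IIa genes, Hdac4 had 581, 860, 734, 1208, 465 and 722 scaled reads in set 1. In set 2 Hdac4 had 695, 833, 678, 1149, 691 and 978. The groups with and without acetate overlapped only in that all 3 agents of set 1 (722) were below etomoxir of set 1 (734). The interval nearest the gene start held 1.44% of the signal, and the strongest held 28.7% (medians over libraries). That interval, 114186 to 122876 bp into the gene, had 164, 256, 197, 363, 122 and 197 in set 1 and 225, 250, 198, 306, 175 and 290 in set 2. The interval around the promoter printed above, 13504 to 18984 bp into the gene, had 187, 243, 213, 313, 161 and 209 in set 1 and 187, 229, 201, 323, 159 and 287 in set 2. Both Hdac4 intervals were highest in etomoxir + acetate and lowest in SB204990 + etomoxir in each set, with values of similar size.

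Hdac5 had 653, 1076, 781, 1548, 499 and 967 scaled reads in set 1. In set 2 it had 890, 1256, 764, 1501, 763 and 1258. All libraries with acetate (967 to 1548) were above all without (499 to 890), as in 39.3% of all genes. Its interval (chr11:102200526-102231160) covered the start and most of the gene and held 96.9% to 99.1% of the signal.

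Hdac7 had few reads, between 39 and 89 per library. Its scaled values were 22.4, 41.6, 44.0, 69.0, 15.5 and 38.2 in set 1 and 45.2, 76.7, 25.8, 58.6, 57.0 and 45.1 in set 2. Treatments with and without acetate overlapped, and the 2 libraries of SB204990 + etomoxir held the lowest value of set 1 and 1 of the higher values of set 2. None of its 3 intervals overlapped the gene, as all lay between -22077 and -13002 bp relative to its start. The gene, start included, lay inside an interval of 111835 bp (chr15:97739620-97851454) that the authors' annotation named Slc48a1. In this interval the scaled reads were 5180, 7438, 5751, 9373, 4302 and 6655 in set 1 and 5570, 7306, 5729, 9206, 4718 and 8890 in set 2. Thus every library with acetate was above every library without it there, though the share of all intervals with such a separation was not counted. The values under the name Hdac7 describe a weak region before the gene.

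Hdac9 was at the limit of the data, with 5 to 17 reads per library. Its scaled values were 3.27, 9.66, 8.0, 17.0, 1.99 and 8.41 in set 1 and 7.13, 12.1, 8.59, 11.5, 13.0 and 6.94 in set 2. With a mean of 8.96 it did not reach the minimum of 10 and was not tested. The span of the gene, 869516 bp, held 11 intervals with other names within it or within 2 kb of its start, and with these the sum was 378.

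Hdac10 had 172, 239, 204, 353, 143 and 197 scaled reads in set 1. In set 2 Hdac10 had 179, 255, 178, 328, 182 and 291. All of it came from 1 interval over the gene start (chr15:89125300-89133459), and the lowest value with acetate (197) was just under the highest without (204). Hdac11 had 165, 266, 202, 383, 113 and 235 in set 1. In set 2 it had 195, 281, 159, 361, 223 and 325. All libraries with acetate (235 to 383) were above all without (113 to 223), as in 39.3% of all genes. The strongest Hdac11 interval held a median of 71.8% of the signal and lay 13992 to 20549 bp from the start, beyond the end of the gene in part. The interval nearest to the gene start under its own name held 1.80%.

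To see whether acetate changed H3K27ac at these genes, log2(scaled value + 1) was compared with limma in 1 fit over all 19458 genes with a mean of at least 10, and called genes are those whose p, after Benjamini-Hochberg adjustment, was under 0.05. Averaged over the 3 inhibitor backgrounds (none, etomoxir, SB204990 + etomoxir), 8 of the 8 tested members were called higher with acetate. So were 88.2% of all genes, so this count is close to the background. The log2 fold changes of Hdac11 (0.82 ± 0.15, SE, adjusted p = 6.0e-05), Hdac5 (0.81 ± 0.12, 1.5e-05) and Hdac1 (0.76 ± 0.12, 2.1e-05) were the largest, those of Hdac7 (0.72 ± 0.28, 0.019), Hdac3 (0.71 ± 0.12, 2.1e-05) and Hdac10 (0.63 ± 0.13, 0.00019) came next, and Hdac4 (0.57 ± 0.12, 0.00013) and Hdac2 (0.53 ± 0.12, 0.00032) had the smallest. The median over members was 0.72 and that over all genes was 0.63. Among all genes the members ranged from percentile 21.6 (Hdac2) and 31.6 (Hdac4) to 91.3 (Hdac5) and 92.0 (Hdac11). Hdac1, Hdac2, Hdac3, Hdac4, Hdac5, Hdac10 and Hdac11 were higher with acetate in 6 of 6 same-set pairs, and Hdac7 and Hdac9 in 5 of 6, where 84.2% of all tested genes were higher in 6 of 6. The log2 fold change of Hdac7 fell to 0.42 without SB204990 + etomoxir of set 1. The call for Hdac7 was lost without any 1 of 5 libraries (vehicle of set 1, acetate and etomoxir of set 2 and both with all 3 agents), with adjusted p from 0.051 to 0.10. Hdac6 and Hdac8 changed by 0.61 and 0.55, with adjusted p of 0.00025 and 0.00091.

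By background the members also followed all genes. In acetate vs. vehicle, limma called 0 of 8 (0% of all genes), with 6 at an unadjusted p under 0.05 (8341 of all genes), and edgeR also called 0 (0% of all genes). Their log2 fold changes ranged from 0.41 (Hdac4) to 0.81 (Hdac7), against a median of 0.48 over all genes. With the set as a block, limma called 3 members (20% of all genes). The limma count was 8 in a fit of the 4 libraries compared alone (61.5% of all genes) or without the SB204990 + etomoxir library of set 1 (61.1%) or set 2 (61.2%), and 3 without either library with all 3 agents (11.9% in each case). In etomoxir + acetate vs. etomoxir, 7 of 8 were called higher (78.2% of all genes), from 0.50 ± 0.21 (SE) for Hdac2 (adjusted p = 0.033) to 1.05 ± 0.27 for Hdac11 (0.0032), and Hdac7 was not called (0.90 ± 0.48, 0.087). Without etomoxir + acetate of set 1, 4 were called (28.8% of all genes). In SB204990 + etomoxir + acetate vs. SB204990 + etomoxir, 7 of 8 were called (57.7% of all genes), from 0.57 for Hdac4 (0.023) to 0.84 ± 0.21 for Hdac5 (0.0066). Hdac7 was not (0.46 ± 0.48, 0.40), with 1.24 in set 1 and -0.33 in set 2. This count fell to 3 without SB204990 + etomoxir of set 1 (19.1% of all genes), to 0 without all 3 agents of set 2 (0%) and to 0 in a fit of the 4 libraries alone (0%). The test of whether the acetate change differed with etomoxir (0% of all genes called) or with both inhibitors (0%) called 0 of 8, and 0 of 8 had an unadjusted p under 0.05 in either (31 and 11 of all genes). edgeR called 0 as well (0% of all genes in both).

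**Figure D3:**
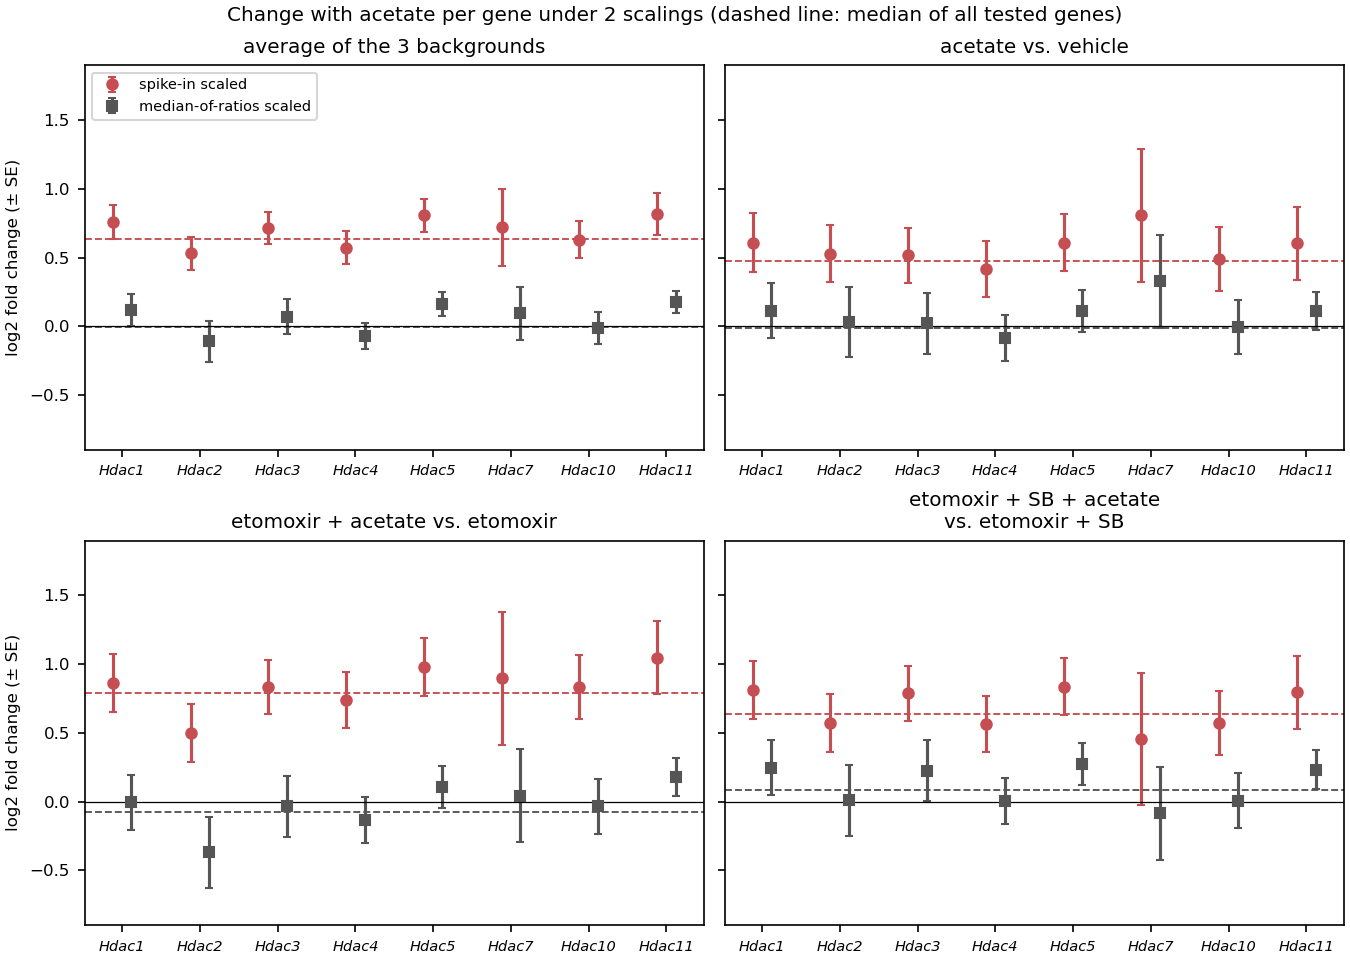
Log2 fold change with acetate (y axis, ± SE from limma) of the 8 tested genes (x axis), averaged and in each inhibitor background, for spike-in scaled values (red circles) and median-of-ratios scaled reads (grey squares). Dashed lines are medians of all tested genes; the members scatter around the red line at 0.63 in the averaged panel and around 0 after rescaling.

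A spike-in factor moves all genes of a library alike, so the genes were also compared with the shared shift taken out. After median-of-ratios scaling of the recovered reads the median over all genes was -0.01 for the averaged change, and 0 of 8 members were called (0% of all genes), with 0 at an unadjusted p under 0.05 (1021 of all genes). The members then ranged from -0.11 ± 0.15 (SE) for Hdac2 to 0.17 ± 0.08 for Hdac11 (adjusted p = 0.95 in limma) and 0.16 ± 0.09 for Hdac5. Hdac4 (-0.07) and Hdac10 (-0.01) also changed sign. The 3 separate backgrounds also had 0 members called (0% of all genes in each). With each library set to the same total, 0 of 8 were called (0.195% of all genes) and 2 of 8 had an unadjusted p under 0.05 (2428 of all genes), and log2 fold changes ranged from -0.09 (Hdac2) and -0.05 (Hdac4) to 0.14 ± 0.06 (Hdac1), 0.18 ± 0.06 (Hdac5) and 0.19 ± 0.09 (SE, Hdac11, adjusted p = 0.44 in limma). In RPM, Hdac5 went from 106 ± 14.3 to 116 ± 13.3 (SD, n = 2) from vehicle to acetate, from 97.4 ± 0.0828 to 115 ± 2.03 with etomoxir and from 99.8 ± 9.19 to 112 ± 0.682 with both inhibitors. Hdac2 went from 40.4 ± 3.36 to 42.0 ± 3.58, from 45.1 ± 0.310 to 38.1 ± 0.438 and from 38.9 ± 6.70 to 36.2 ± 2.45. Shares of Hdac4 varied least over the 12 libraries, with a coefficient of variation of 4.14%, and those of Hdac7 (33.4%) and Hdac9 (39.3%) most.

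**Figure D4:**
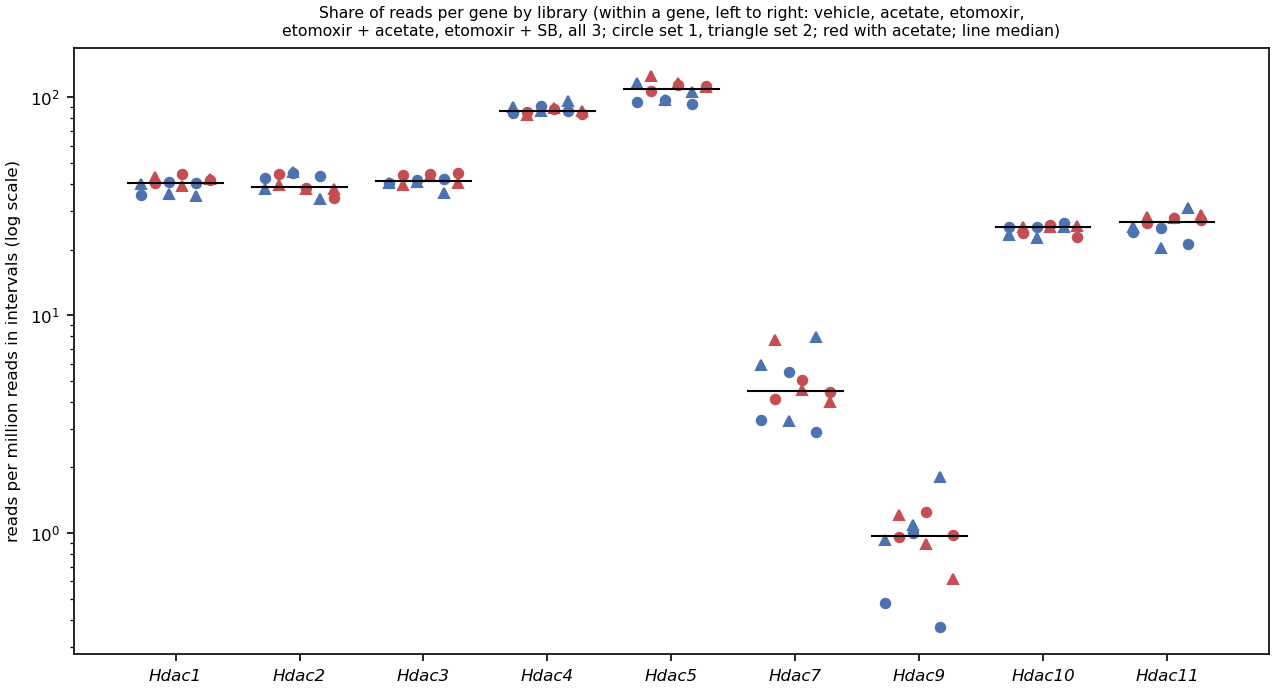
RPM (reads relative to all reads in intervals, y axis, log scale) of each gene (x axis) in the 12 libraries, in the order of treatments given in the title, with circles for set 1, triangles for set 2, red for acetate and a line at the median. Within each gene other than Hdac7 and Hdac9 the libraries lie within 1.15 to 1.53-fold of each other.

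Hdac5 and Hdac2 were chosen as a pair after their values were seen, Hdac2 as the lowest of this order and Hdac5 as near its top, below Hdac11. The ratio of Hdac5 to Hdac2 does not depend on any library factor. In set 1 it was 2.14 to 2.24 in the 3 libraries without acetate and 2.40 to 3.26 in the 3 with acetate, with no overlap. In set 2 it was 2.15 to 3.11 without and 2.94 to 3.18 with acetate, so the groups overlapped. No test was made of it.

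At single intervals, 30 of the 67 members had a mean of at least 10 and were tested with the 63903 such intervals of the table. Averaged over backgrounds, 24 of 30 were called higher with acetate (77.2% of all intervals), and all 30 had a log2 fold change above 0, from 0.05 to 1.02, with a median of 0.68 (0.64 over all intervals). All tested intervals of Hdac1 (4), Hdac3 (4), Hdac5 (1), Hdac10 (1) and Hdac11 (4) were called, as well as 2 of 3 of Hdac2, 2 of 3 of Hdac7 and 6 of 10 of Hdac4. The 6 that were not called were weak, with means between 10.4 and 16.1 scaled reads. The largest change among those called was at an Hdac11 interval of 691 bp, 7182 to 7872 bp from the gene start (1.02 ± 0.32, SE, adjusted p = 0.0038 in limma). Its scaled reads were 8.88, 8.45, 9.72, 16.0, 1.59 and 12.3 in set 1 and 7.92, 11.2, 2.86, 16.3, 13.0 and 19.1 in set 2. The same interval had the largest change in etomoxir + acetate vs. etomoxir, where 17 of 30 were called (56.4% of all intervals), at 1.42 ± 0.56 (0.027), and in all 3 agents vs. SB204990 + etomoxir, where 9 of 30 were called (27.4%), at 1.44 ± 0.56 (0.041). In the latter its change was 2.36 in set 1 and 0.52 in set 2. The first of these counts, 17, fell to 2 without etomoxir of set 2 (10.5% of all intervals) or etomoxir + acetate of set 1 (8.05%), to 8 without etomoxir + acetate of set 2 (27%) and to 9 without etomoxir of set 1 (25%). The second, 9, was 24 without SB204990 + etomoxir of set 2 (71.6%), 3 without that of set 1 (8.28%) and 1 without all 3 agents of set 2 (3.31%).

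**Figure D5:**
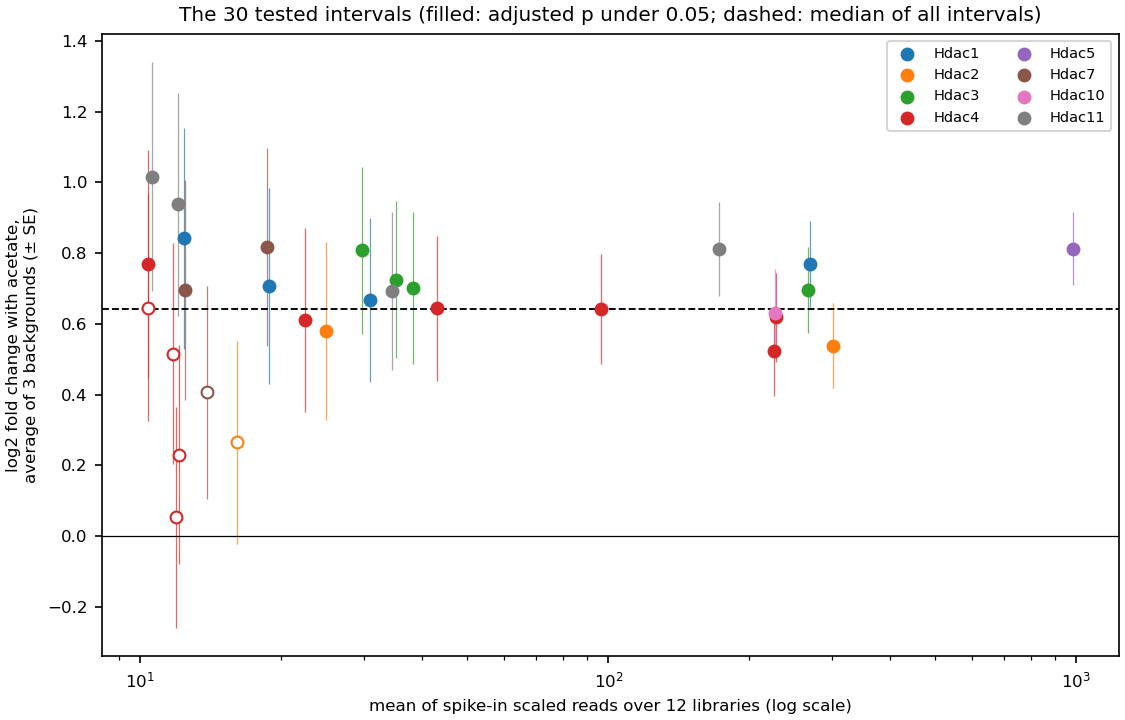
Log2 fold change with acetate averaged over backgrounds (y axis, ± SE from limma) against the mean of scaled reads (x axis, log scale) for the 30 tested intervals, coloured by gene and filled where called. The 9 intervals with means above 50 lie between 0.52 and 0.81, near the dashed median of all intervals at 0.64, and the open points are all at the weak end.

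The strong intervals differed less. The Hdac5 interval changed by 0.81 ± 0.10 (SE, adjusted p = 1.9e-12 in limma), the Hdac1 interval at the gene start by 0.77 ± 0.12 (7.0e-09), the main Hdac3 interval by 0.70 ± 0.12 (1.4e-07) and the interval over the Hdac2 start by 0.54 ± 0.12 (2.9e-05). In Hdac4 the interval around the internal promoter changed by 0.52 ± 0.13 (0.00012) and the strongest intronic one by 0.62 ± 0.13 (5.3e-06), so the difference between them was smaller than either SE. The intervals that covered the starts of Hdac3 and Hdac7 under other names changed by 0.75 ± 0.12 (2.0e-08) and 0.64 ± 0.10 (2.1e-09). At the other end, an Hdac4 interval 169016 to 169856 bp into the gene was at 0.05 ± 0.31 (0.87), with 0.36 in set 1 and -0.26 in set 2. In acetate vs. vehicle 0 of 30 were called (0.0955% of all intervals), 8 had an unadjusted p under 0.05 in edgeR (17277 of all intervals), which also called 0 of 30 (0.117%), and the lowest adjusted p in limma was 0.077, for Hdac5. With the set as a block, limma called 3 (3.26% of all intervals). Without the SB204990 + etomoxir library of set 1 (21% of all intervals) or set 2 (21.2%) 8 were called, and 4 without all 3 agents of set 1 (8.98%) or set 2 (8.99%). After median-of-ratios scaling 0 of 30 were called in the average and in each background (0% of all intervals in each), with 1 of 30 at an unadjusted p under 0.05 in the average (4178 of all intervals).

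When intervals were assigned by position (overlap with the gene span or within 2 kb of its start), an assignment chosen after seeing the table, 9 of 9 genes had a mean of at least 10. All 9 were called higher in the averaged change (88.2% of 19459 genes), in etomoxir + acetate vs. etomoxir (78.2%) and in all 3 agents vs. SB204990 + etomoxir (57.7%), and 0 in acetate vs. vehicle (0%). Hdac7 was then 0.64 ± 0.10 (SE, adjusted p = 1.8e-05 in limma) and Hdac9 0.63 ± 0.12 (5.8e-05). Both values rest on intervals with other names and need not describe these genes. That of Hdac7 is the Slc48a1 interval alone, and the largest interval in the sum of Hdac9 carried the name Twist1, with a mean of 140 of 378.

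Without a change in acetate, no member was called in any inhibitor comparison over all 12 libraries. In etomoxir vs. vehicle 0 of 8 genes were called (0.0154% of all genes), with log2 fold changes from 0.00 (Hdac11) to 0.30 ± 0.21 (SE, Hdac2) and a median of 0.14 over all genes. Of the 9 members, 6 changed in opposite directions in the 2 sets, for example Hdac11 with 0.29 and -0.29. In SB204990 + etomoxir vs. vehicle 0 of 8 were called (0.00514%), with log2 fold changes from -0.30 to -0.09 and a median of -0.18 over all genes. Of the 9 members, 4 changed in opposite directions in the 2 sets (Hdac7, Hdac9, Hdac10 and Hdac11), and the medians of all genes were -0.34 in set 1 and -0.02 in set 2. Without the SB204990 + etomoxir library of set 2, which stood apart, 3 were called lower (12.3% of all genes). In SB204990 + etomoxir vs. etomoxir 0 of 8 were called (0% of all genes), with Hdac2 at -0.58 ± 0.21 (adjusted p = 0.23 in limma) and Hdac3 at -0.43 ± 0.20 (0.23) and a median of -0.33 over all genes. Here 5 of the 9 members changed in opposite directions in the 2 sets, for example Hdac4 with -0.66 and 0.03 and Hdac11 with -0.83 and 0.48, and the medians of all genes were -0.62 and -0.0068. Without that library 7 were called lower, as were 63.8% of all genes. With acetate present, all 3 agents vs. etomoxir + acetate again gave 0 of 8 (0.00514% of all genes), from -0.43 to -0.60, against a median of -0.46 over all genes. All 9 members were lower in both sets, and the medians of all genes were -0.69 in set 1 and -0.23 in set 2. After median-of-ratios scaling 7 of 8 members were above 0, with a median of 0.06 over all genes, and with each library set to the same total 6 of 8 were below 0, with a median of -0.03 over all genes. Here 7 were called lower without SB204990 + etomoxir of set 1 (55.2% of all genes) or set 2 (55.6%), and 5 without all 3 agents of set 2 (36.4%). None of these comparisons had a member called by edgeR (0.0103%, 0.00514%, 0% and 0.00514% of all genes), and the numbers of members at an unadjusted p under 0.05 were 0, 0, 2 and 5 of 8 in the order given, compared with 133, 825, 4087 and 7537 of the 19458 genes. In the first 3 of these comparisons the direction depended on the scaling. After median-of-ratios scaling 2, 0 and 2 of 8 members were above 0. With each library set to the same total 4, 4 and 5 of 8 were.

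For single intervals the inhibitor comparisons and interactions called 0 of 30. The background was 0.0626% for etomoxir vs. vehicle, 0.0532% for SB204990 + etomoxir vs. vehicle, 0.0469% for SB204990 + etomoxir vs. etomoxir, 0.00156% for all 3 agents vs. etomoxir + acetate, and 0% and 0.00156% for the interactions. Leaving out 1 library gave intervals called lower in 3 of these comparisons. Without SB204990 + etomoxir of set 2 there was 1 in SB204990 + etomoxir vs. vehicle (3.92% of all intervals), and there were 6 in SB204990 + etomoxir vs. etomoxir (25.1%). The latter had 1 without SB204990 + etomoxir of set 1 (0.518%) and 1 without all 3 agents of set 1 (4.18%) or set 2 (4.16%). In all 3 agents vs. etomoxir + acetate there were 5 without SB204990 + etomoxir of set 1 or set 2 (21.4% each) and 7 without all 3 agents of set 2 (15.2%). The lowest unadjusted p in etomoxir vs. vehicle was at an Hdac1 interval near the end of the gene, 21803 to 22915 bp from its start (1.22 ± 0.48, SE, adjusted p = 1.00 in limma). It had 9.35, 16.9, 24.0, 34.0, 12.3 and 21.3 scaled reads in set 1 and 6.34, 23.3, 15.5, 26.9, 20.0 and 16.5 in set 2, so vehicle was the lowest treatment in both sets. The change was 1.27 and 1.17 in the 2 sets and 1.10 after median-of-ratios scaling (adjusted p = 1.00).

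Lists of partner proteins and of like enzymes were written from general knowledge. For the averaged acetate change, 13 of 14 tested genes of the Sin3 complex, 8 of 8 of NuRD, 4 of 5 of CoREST, 3 of 3 of NCoR/SMRT and 2 of 2 of MiDAC, a further complex of Hdac1 and Hdac2, were called higher and 0 lower, where 88.2% of all genes were called higher. Of the class IIa partners (MEF2 factors, 14-3-3 proteins and the kinases that phosphorylate these enzymes) 17 of 17 were called higher, of the histone acetyltransferases 11 of 11 and of the sirtuins, the NAD-dependent deacetylases, 7 of 7. Median log2 fold changes of these lists lay between 0.61 (acetyltransferases) and 0.74 (MiDAC), compared with 0.72 for the members and 0.63 for all genes. The largest were those of Rcor2 (1.00 ± 0.13, SE), a CoREST scaffold, and Mef2c (0.98 ± 0.23), a MEF2 factor. The smallest were those of Rcor3 (0.34 ± 0.30) and Ing2 (0.42 ± 0.37), a Sin3 subunit, and neither passed the test (adjusted p = 0.28 and 0.29 in limma). After median-of-ratios scaling 0 genes of any list were called.

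The pattern of each tested member over the 12 libraries was set beside that of all genes, on log2 values with each library set to the same total. The gene most like Hdac5 was Rrp1b (Pearson r = 0.96), that most like Hdac7 was Gm9899 (0.96), and the others were Efcab7 for Hdac2 and Chaf1b for Hdac11 (0.95 each), Ctsz for Hdac1 (0.93), Tmed2 for Hdac3 and Dock8 for Hdac4 (0.91 each) and Wtip for Hdac10 (0.81). Each r is the highest of many and is given as a description over 12 libraries that differ in depth. No member was the closest gene of another.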

How the data were processed

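H3K27ac ChIP-seq was performed on 4T1 cells with 7.5% human chromatin as spike-in, in 6 treatments with 2 libraries each. Per the labels, reads were processed with nf-core/chipseq (version 1.2.2). The deposited table gives signal, which the authors made by multiplying the reads in each merged interval by a spike-in factor per library, on mm10, with the nearest gene's name. Division by the smallest step in each library returned whole reads (within 0.01) for 100% of values, and 7179165 to 16676442 reads were recovered per library. No column was left unused as foreign (0), and 1 gene value is the sum of the intervals of that name.

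Values were compared on the log2(value + 1) scale, which understates changes of low features, with limma 3.58.1 in R 4.3.3 (eBayes with intensity trend, 6 group means over 12 libraries, mean of at least 10, Benjamini-Hochberg adjustment over all genes or intervals, two-sided). edgeR 4.0.16 on recovered reads, other scalings, pseudocount 10, other filters, fits without trend, with a replicate block or of the compared libraries alone, and leaving out each library were alternatives. The fit was tested on simulated data. Gene spans came from GENCODE M21. The genes named are the 9 members, their intervals nearest the start and with the largest mean, the called interval with the largest change in each comparison, the gene most correlated with each member, and the 2 largest and 2 smallest changes of the lists. Other intervals were named after their values were seen. The members and lists were chosen with earlier results of these data known. On median-of-ratios scaled reads, same-set deviations from group means correlated between -0.16 and 0.37 over pairs of treatments, so sets were not taken as pairs. This check cannot show an offset shared by all intervals of a set, so it does not decide whether the spike-in scaled values are paired.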

Additional observations from a re-analysis of the deposited data

How the results depend on the processing

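The acetate calls differed between scalings. With median-of-ratios scaling, total-sum scaling or the share of reads times the factor, 0 member genes and 0 member intervals were called in the averaged change, in etomoxir + acetate vs. etomoxir and in all 3 agents vs. SB204990 + etomoxir. Of all features, total-sum scaling called 0.195% of genes and 0.0782% of intervals higher in the averaged change, and 0% in the other 2 comparisons and under the other 2 scalings. The averaged change of Hdac2 became -0.110 (median-of-ratios) and -0.0922 (total-sum), that of Hdac4 -0.0706 and -0.0525, and that of Hdac10 -0.0117 (median-of-ratios). These 2 scalings remove any shift shared by all genes by construction, and for the third the cause was not tested. In acetate vs. vehicle the replicate block by set gave 3 of 8 genes (20% of all genes) and 3 of 30 intervals (3.26% of all intervals), and the 4 libraries alone gave 8 (61.5%) and 7 (23.3%). Elsewhere the block moved no count of members called by more than 1.5 times. In all 3 agents vs. SB204990 + etomoxir the 4 libraries alone gave 0 genes (0%) and 0 intervals (0%), and a fit without intensity trend gave 4 (47.8%) and 0 (0%). That fit gave 9 intervals (35.9%) in etomoxir + acetate vs. etomoxir. Requiring a mean of at least 50, so that fewer intervals were tested, left 9 members, of which 9 were called in the averaged change (99.1% of all such intervals), 4 in acetate vs. vehicle (25.6%) and 9 in etomoxir + acetate vs. etomoxir (92.3%). Without a filter 10 of 67 were called in the latter (23.1%) and 5 of 67 in all 3 agents vs. SB204990 + etomoxir (8.79%). The cause of these shifts was not tested, other than by construction.

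Leaving out 1 library gave 7 to 8 genes (81.2% to 98.5% of all genes) and 17 to 27 intervals (58.2% to 94.8% of all intervals) in the averaged change, 0 to 8 (0% to 61.2%) and 0 to 8 (0% to 21.2%) in acetate vs. vehicle, 4 to 8 (28.8% to 92.2%) and 2 to 22 (8.05% to 76.8%) in etomoxir + acetate vs. etomoxir, and 0 to 8 (0% to 91.4%) and 1 to 24 (3.31% to 71.6%) in all 3 agents vs. SB204990 + etomoxir. Called lower were 0 to 3 genes (0% to 12.3%) and 0 to 1 intervals (0% to 3.92%) in SB204990 + etomoxir vs. vehicle, 0 to 7 (0% to 63.8%) and 0 to 6 (0% to 25.1%) in SB204990 + etomoxir vs. etomoxir, and 0 to 7 (0% to 55.6%) and 0 to 7 (0.00156% to 21.4%) in all 3 agents vs. etomoxir + acetate. With the interval of largest mean in place of that nearest the start, the share of the gene became 71.0% in Hdac3, 28.7% in Hdac4, 55.5% in Hdac9 and 71.8% in Hdac11. Of 229 alternative gene counts 204 kept within 1.5 times the value given, as did 181 of 219 interval counts. Depth limited Hdac9 (5 to 17 reads per library) and Hdac7 (39 to 89), and 37 of the 67 intervals were too weak to test.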
